A study of Mus musculus with 18 samples.

Results

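The nuclear genes for the subunits of the oxidative phosphorylation machinery were followed through LPS treatment and astrocyte Chd8 deletion in mouse cortex. Members were taken by gene symbol alone: all symbols beginning with Nduf, Uqcr, Cox4 to Cox8 or Atp5, together with Sdha, Sdhb, Sdhc, Sdhd and Cyc1. Of the 13784 genes in each table, 87 met this rule, and 1 further row with a pseudogene name, Ndufb1-ps, was left out. The 87 genes comprise 37 subunits of complex I, 8 assembly factors of complex I (the Ndufaf genes, which build the complex but are not part of it), 4 subunits of complex II, 9 of complex III, 12 of complex IV and 17 of the ATP synthase. Without the assembly factors 79 genes remain. Ndufa4 is counted with complex I by its symbol, although its protein is known as a subunit of complex IV. All 87 are genes that the deposited tables list, and any filter by which the authors arrived at that list is not stated. No gene of the deposited tables carries the symbol Cox4i2, Cox6b2, Cox7a1, Cox8b or Ndufa4l2, so these isoform genes have no values here.

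Oxidative phosphorylation is the last stage of respiration in mitochondria. Complexes I and II pass electrons from NADH and succinate to ubiquinone, complex III passes them on to cytochrome c, and complex IV (cytochrome c oxidase) passes them to oxygen. Complexes I, III and IV pump protons across the inner membrane, and the ATP synthase uses their return to make ATP, on which ion pumping and synaptic transmission in the cortex depend. Most subunits are encoded in the nucleus and imported, while a small set is encoded in mitochondrial DNA, and complex II alone is built only from nuclear subunits.

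The tissue was whole dissected cortex in 18 samples, from control mice or from mice whose astrocytes lacked the chromatin remodeller Chd8 (conditional knockout, cKO). Mice given saline provided 4 control and 4 cKO samples. Mice given lipopolysaccharide (LPS, an outer-membrane component of Gram-negative bacteria that triggers innate immunity) provided 5 control and 5 cKO samples. LPS was injected into the peritoneum at 5 mg/kg at an age of 4 to 6 months, 72 hours before dissection. The labels give neither the Cre driver nor the control genotype, and the deletion concerns astrocytes only, whereas the RNA came from all cells of the tissue. The study asked how loss of Chd8 in astrocytes alters expression at baseline and during neuroinflammation. The files hold no values per library, only the authors' deposited tables of 3 comparisons: LPS against saline in controls, LPS against saline in cKO mice, and cKO against control mice after LPS. The spread between mice therefore enters through the deposited tests, the depth of each library is unknown, and group levels in CPM (read counts scaled to library size) were back-calculated within each table.

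Chd8 itself, measured in whole cortex, had a log2 fold change of 0.020 ± 0.051 SE between cKO and control mice after LPS in the authors' deposited table (false discovery rate, FDR = 0.901). In tissue where astrocytes are one cell type of several, this does not check the deletion. The Y-linked transcripts Ddx3y and Uty rose with LPS in controls by 10.87 ± 2.63 SE (FDR = 0.0351) and 9.81 ± 2.45 SE (FDR = 0.0377) on the log2 scale in the authors' deposited table, so the makeup by sex differed between the control groups. In cKO mice Ddx3y had -0.16 ± 1.30 SE (FDR = 0.941) in the authors' deposited table. Sex and LPS cannot be told apart in the control comparison, nor in the difference of responses that uses it. Such transcripts also stood at different levels in the 2 genotypes: the back-calculated Ddx3y level was -7.19 log2 CPM in controls and 5.87 in cKO mice after saline, and after LPS the X-linked Xist was at 7.26 and 6.05 log2 CPM (FDR = 0.810) in the authors' deposited tables. Genotype and sex can therefore not be told apart after saline, and a part of sex in the comparison after LPS was not tested. The labels name no batch, and the sample codes in the titles differ in form between saline and LPS. The neuronal and glial markers were present: the summed level of 10 excitatory neuron markers was 2424 CPM and that of 10 astrocyte markers 4106 CPM in controls given saline, back-calculated from the authors' deposited table.

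The 87 genes are short and highly expressed. Their median transcript length was 865 bases, against 3115 over the genes with a length in the annotation, and their median GC content was 50.5%, against 50.2%. Per kilobase of transcript, the median level over the 4 groups was 6.17 log2 CPM, against 3.12 for all genes. Atp5b, the catalytic beta subunit of the ATP synthase, had the highest level per kilobase at 8.96 log2 CPM, followed by Cox8a (8.58) and Cox4i1 (8.50) of complex IV. Median levels per kilobase were 7.30 for complex IV, 7.04 for the ATP synthase, 6.75 for complex III, 5.93 for complex II and 5.91 for complex I subunits. The assembly factors lay lower, with a median of 3.61, and Ndufaf6 had the lowest level of all members at 1.92. Cox6a2, the heart and muscle isoform of a complex IV subunit, stood at 2.33 per kilobase, far below its ubiquitous partner Cox6a1 at 8.14.

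Promoters of respiratory chain genes are known for binding sites of NRF1, of the ETS factor GABPA and of other general activators. Of the 87 members, 72 matched the RefSeq promoter table for GRCm38.p6, a build other than the GRCm39 of the deposited tables. In windows from 250 bases before to 50 bases after the start, on either strand, the NRF1 motif GCGCANGCG stood in 30.6% of member promoters, against 15.0% of the promoters of measured genes and 7.03% of all promoters in the table. The ETS motif CCGGAAG stood in 26.4% of member promoters, against 19.2% of those of measured genes and 9.93% of all. The YY1 motif AAGATGGCG stood in 11.1%, 3.46% and 1.64% of these promoters in the same order. The ERR motif TCAAGGTCA was rare, at 2.78%, 0.356% and 0.466%. The Sp1 motif GGGCGGG stood in 36.1%, 52.3% and 27.9%. Altogether 50 of the 72 held at least 1 of the 5 motifs, and motifs such as ETS and YY1, which end and begin with AAG, can overlap. These are letter matches, not measured binding.

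Sdha was the only member that rose with LPS, Cox7c fell the most in cKO mice, Uqcr11 fell in cKO mice and Cox6a1 in controls. The promoters of these 4 members are given here to show what motif matches look like, not as a sample of the members. Each is given 5' to 3' on the gene's own strand, as the 150 bases that end just before the RefSeq start in GRCm38.p6, with motif matches in capitals. Sdha lies on the minus strand at chr13:74350241-74350390 and holds the NRF1 motif 3 times.
Sdha: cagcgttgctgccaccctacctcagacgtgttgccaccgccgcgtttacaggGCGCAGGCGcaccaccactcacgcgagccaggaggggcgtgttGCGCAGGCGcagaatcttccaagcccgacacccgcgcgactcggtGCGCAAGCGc
Cox7c lies on the minus strand at chr13:86046796-86046945 and holds none of the 5 motifs in this window.
Cox7c: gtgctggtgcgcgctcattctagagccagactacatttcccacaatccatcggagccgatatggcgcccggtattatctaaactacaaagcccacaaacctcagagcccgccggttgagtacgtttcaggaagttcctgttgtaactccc
Uqcr11 lies on the minus strand at chr10:80406822-80406971 and holds 1 ETS match in this window. The wider window used for the motif shares also holds 1 NRF1 match.
Uqcr11: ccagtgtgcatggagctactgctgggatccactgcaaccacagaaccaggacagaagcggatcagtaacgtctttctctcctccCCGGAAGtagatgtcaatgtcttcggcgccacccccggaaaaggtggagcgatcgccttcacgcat
Cox6a1 lies on the minus strand at chr5:115348959-115349108 and holds, from left to right, 1 NRF1, 1 Sp1 and 1 ETS match in this window. In the wider window it holds 3 NRF1 matches.
Cox6a1: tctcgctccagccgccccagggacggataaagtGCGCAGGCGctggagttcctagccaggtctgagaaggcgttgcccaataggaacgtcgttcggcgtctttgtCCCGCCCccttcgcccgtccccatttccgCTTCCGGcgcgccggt
Of the 22 members that fell with LPS in at least 1 genotype, 18 had a promoter in the table, and 4 of these held the NRF1 motif, 4 the ETS motif, 2 the YY1 motif, 5 the Sp1 motif and none the ERR motif.

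Most of these transcripts were lower after LPS in control cortex, each by a small amount. In the authors' deposited table, 78 of the 87 members had a log2 fold change below 0, against 50.5% of all genes. At an FDR below 0.05, 18 of 87 members fell (20.7%), against 3.31% of all genes in the authors' deposited table. No member rose at that threshold, whereas 6.46% of all genes did, and none was higher at an unadjusted p below 0.05 either in the authors' deposited edgeR result. The median log2 fold change of the members was -0.16, against -0.0027 over all genes. The 18 falls spanned 0.19 to 0.40 on the log2 scale, and fewer cells of a type cannot be told apart from less RNA per cell in bulk tissue. The summed level of the 87 genes went from 8645 to 7710.1 CPM, 89.2% of the saline level.

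Markers of other cell types moved with LPS in controls. Of 9 microglia markers, 6 rose and none fell, and their summed level went from 284 to 411 CPM, back-calculated from the authors' deposited table. Of 8 endothelial markers, 6 rose, with a summed level of 198 after saline and 299 CPM after LPS. Of 10 excitatory neuron markers, 2 rose and none fell, with summed levels of 2424 and 2908 CPM. Of 10 astrocyte markers, the reactive astrocyte filament gene Gfap rose by 1.35 ± 0.12 SE (FDR = 0.000286), the water channel Aqp4 fell by 0.22 ± 0.055 SE (FDR = 0.0385) and the connexin Gjb6 fell by 0.27 ± 0.075 SE (FDR = 0.0483) on the log2 scale in the authors' deposited table. The summed astrocyte level was 4106 CPM after saline and 3973 CPM after LPS. Of 9 pericyte and smooth muscle markers, 1 (Pdgfrb) rose, and none of the inhibitory neuron, oligodendrocyte or striatal neuron markers passed the threshold in the authors' deposited table. The 3 measured choroid plexus markers of 8 listed had a summed level of 114 CPM after saline and 11.4 CPM after LPS, and none passed the threshold. The part of these cells in the respiratory chain result was not tested.

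Complex III, which hands electrons from ubiquinol to cytochrome c, and complex IV, which reduces oxygen, were below 0 throughout in controls. All 9 complex III genes were lower after LPS and 4 fell, with a median log2 fold change of -0.23 in the authors' deposited table. Uqcrq, a small complex III subunit, was back-calculated from the authors' deposited tables at 44.4 CPM in controls given saline, 33.7 in controls given LPS, 44.4 in cKO mice given saline and 35.4 in cKO mice given LPS. It fell in controls by 0.40 ± 0.089 SE (FDR = 0.0279) and in cKO mice by 0.33 ± 0.080 SE (FDR = 0.0237) on the log2 scale in the authors' deposited tables, so its LPS level was below its saline level in both genotypes. Uqcrfs1, the Rieske iron-sulfur protein that takes the first electron in complex III, stood at 70.6 CPM in controls given saline, 57.5 in controls given LPS, 71.1 in cKO mice given saline and 62.9 in cKO mice given LPS, from the authors' deposited tables. It fell in controls by 0.30 ± 0.057 SE (FDR = 0.0149) and had a log2 fold change of -0.18 ± 0.073 SE in cKO mice (FDR = 0.113) in the authors' deposited tables. The core proteins Uqcrc1 and Uqcrc2, which hold the complex together on its matrix side, fell in controls as well, by 0.23 ± 0.056 SE (FDR = 0.0346) and 0.27 ± 0.050 SE (FDR = 0.0141) in the authors' deposited table. In cKO mice Uqcrc1 had a log2 fold change of -0.036 ± 0.072 SE (FDR = 0.749) and Uqcrc2 one of -0.12 ± 0.061 SE (FDR = 0.182) in the authors' deposited table. Each of the 4 that fell in controls was thus below 0 in cKO mice as well. Cyc1, the cytochrome that passes electrons to cytochrome c, had the value nearest to 0 of the complex in controls, -0.091 ± 0.053 SE (FDR = 0.280), and 0.073 ± 0.060 SE (FDR = 0.409) in cKO mice in the authors' deposited tables.

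Uqcr11, a small subunit whose promoter is given above, was called in cKO mice and not in controls. Its back-calculated levels in the authors' deposited tables were 69.3 CPM in controls given saline, 62.2 in controls given LPS, 70.5 in cKO mice given saline and 58.5 in cKO mice given LPS. It fell in cKO mice by 0.27 ± 0.069 SE (FDR = 0.0277), against a log2 fold change of -0.16 ± 0.091 SE (FDR = 0.283) in controls in the authors' deposited tables. The difference of its responses, cKO minus control, was -0.11 ± 0.14 SE (adjusted p = 0.923), so the genotypes were not shown to differ in it.

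All 12 complex IV genes were lower after LPS in controls, 5 fell, and the median log2 fold change was -0.22 in the authors' deposited table. Cox7c, a small membrane subunit, was back-calculated from the authors' deposited tables at 100.4 CPM in controls given saline, 77.0 in controls given LPS, 102 in cKO mice given saline and 75.2 in cKO mice given LPS. It fell by 0.38 ± 0.062 SE (FDR = 0.00742) in controls and by 0.45 ± 0.058 SE (FDR = 0.00455) in cKO mice in the authors' deposited tables. These were the lowest FDR values among the members in each comparison. Cox8a, another small subunit and the complex IV gene with the highest level per kilobase, stood at 233 CPM in controls given saline, 189.7 in controls given LPS, 230.3 in cKO mice given saline and 193 in cKO mice given LPS in the authors' deposited tables. It fell by 0.30 ± 0.073 SE (FDR = 0.0370) in controls and by 0.26 ± 0.073 SE (FDR = 0.0373) in cKO mice in the authors' deposited tables. Cox7a2, the widely expressed form of subunit 7a, fell by 0.24 ± 0.055 SE (FDR = 0.0301) and 0.20 ± 0.057 SE (FDR = 0.0363) in the same order in the authors' deposited tables. These 3 genes were lower after LPS in both genotypes, and for each the difference between the genotypes' responses was smaller than its standard error.

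Cox4i1 and Cox6a1, nuclear subunits of the complex IV holoenzyme, were called in controls and not in cKO mice. Cox4i1, the main isoform of the subunit through which ATP regulates the enzyme, was back-calculated from the authors' deposited tables at 292 CPM in controls given saline, 252 in controls given LPS, 288 in cKO mice given saline and 276 in cKO mice given LPS. It fell by 0.21 ± 0.054 SE (FDR = 0.0420) in controls and had a log2 fold change of -0.064 ± 0.049 SE (FDR = 0.374) in cKO mice in the authors' deposited tables. Cox6a1 fell by 0.25 ± 0.068 SE (FDR = 0.0475) in controls, with -0.11 ± 0.047 SE (FDR = 0.118) in cKO mice in the authors' deposited tables. The differences of their responses, cKO minus control, were 0.14 ± 0.088 SE (adjusted p = 0.828) and 0.14 ± 0.10 SE (adjusted p = 0.859), so neither was shown to differ. The muscle isoform Cox6a2 had the widest error of all members: -0.55 ± 0.34 SE (FDR = 0.319) in controls and 0.14 ± 0.22 SE (FDR = 0.685) in cKO mice in the authors' deposited tables, at levels of 4.10, 2.80, 3.30 and 3.62 CPM in the group order used above. Cox5a, Cox5b, Cox6b1 and the supercomplex factor Cox7a2l lay between -0.18 and -0.15 in controls and between -0.20 and -0.010 in cKO mice, and none passed the threshold in the authors' deposited tables.

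Complex I, the NADH dehydrogenase and entry point for most electrons, was lower in 34 of its 37 genes in controls, with 6 that fell and a median of -0.16 in the authors' deposited table. Ndufa13, an accessory subunit also known as GRIM-19, was back-calculated from the authors' deposited tables at 95.6 CPM in controls given saline, 77.6 in controls given LPS, 92.5 in cKO mice given saline and 81.9 in cKO mice given LPS. It fell by 0.30 ± 0.058 SE (FDR = 0.0155) in controls, the lowest value of the complex, and had -0.17 ± 0.064 SE (FDR = 0.0833) in cKO mice in the authors' deposited tables. Ndufv1, the subunit that binds NADH and its flavin, stood at 152 CPM in controls given saline, 131 in controls given LPS, 143 in cKO mice given saline and 141 in cKO mice given LPS in the authors' deposited tables. It fell by 0.21 ± 0.058 SE (FDR = 0.0472) in controls and had -0.024 ± 0.077 SE (FDR = 0.848) in cKO mice in the authors' deposited tables. The other 4 that fell in controls were the accessory subunits Ndufb5, Ndufb8, Ndufb11 and Ndufc2. Across the 37 genes, values ran from -0.30 to 0.12 (Ndufa5) in controls and from -0.27 (Ndufc1) to 0.17 (Ndufs7) in cKO mice in the authors' deposited tables. In cKO mice 1 complex I subunit gene, the accessory Ndufc1, fell, by 0.27 ± 0.060 SE (FDR = 0.0178), from 27.0 to 22.5 CPM, against a log2 fold change of -0.20 ± 0.083 SE (FDR = 0.147) in controls in the authors' deposited tables.

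The core electron-carrying subunit Ndufs1 had a log2 fold change of -0.16 ± 0.061 SE (FDR = 0.110) in controls in the authors' deposited table and did not pass the threshold in either genotype. Ndufs4, an accessory subunit whose loss causes Leigh syndrome in people, was nearest to 0 among the named complex I genes in controls, at -0.013 ± 0.082 SE (FDR = 0.934) in the authors' deposited table. Ndufa4 had -0.19 ± 0.056 SE (FDR = 0.0547) in controls and -0.059 ± 0.052 SE (FDR = 0.442) in cKO mice in the authors' deposited tables. Of the 8 assembly factors, 7 were below 0 in each genotype in the authors' deposited tables. Ndufaf1, which helps assemble the membrane arm, fell in cKO mice by 0.26 ± 0.079 SE (FDR = 0.0439), from 20.8 to 17.3 CPM, and had -0.19 ± 0.14 SE (FDR = 0.384) in controls in the authors' deposited tables. No other assembly factor passed the threshold.

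Complex II, which also belongs to the tricarboxylic acid cycle as succinate dehydrogenase, was not uniform. Sdha, its flavoprotein and catalytic subunit, was back-calculated from the authors' deposited tables at 276 CPM in controls given saline, 313 in controls given LPS, 264 in cKO mice given saline and 342 in cKO mice given LPS. It rose in cKO mice by 0.37 ± 0.070 SE (FDR = 0.0105), the only rise among the members in either LPS comparison, and its log2 fold change in controls was 0.18 ± 0.10 SE (FDR = 0.259) in the authors' deposited tables. Its level after LPS was therefore above that after saline in both genotypes, and the difference of the responses was 0.20 ± 0.15 SE (adjusted p = 0.870). The iron-sulfur subunit Sdhb had -0.16 ± 0.054 SE (FDR = 0.0880) in controls and 0.032 ± 0.058 SE (FDR = 0.722) in cKO mice in the authors' deposited tables. The membrane anchors Sdhc and Sdhd were below 0 in both genotypes, at -0.15 and -0.11 in controls and -0.13 and -0.13 in cKO mice in the authors' deposited tables, without passing the threshold. The summed level of complex II, Sdha included, was 103% of the saline level after LPS in controls and 115% in cKO mice.

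Among the 17 ATP synthase genes, 13 were below 0 in controls, 3 fell, and the median was -0.14 in the authors' deposited table. Atp5a1, the alpha subunit of the catalytic head, was back-calculated from the authors' deposited tables at 858 CPM in controls given saline, 678 in controls given LPS, 826 in cKO mice given saline and 749 in cKO mice given LPS. It fell by 0.34 ± 0.068 SE (FDR = 0.0177) in controls and had -0.14 ± 0.087 SE (FDR = 0.271) in cKO mice in the authors' deposited tables. Atp5b, which forms the same head with the alpha subunit, had -0.15 ± 0.071 SE (FDR = 0.199) in controls and -0.0054 ± 0.081 SE (FDR = 0.968) in cKO mice in the authors' deposited tables. The 17 values ran up to 0.085 (Atp5d) in controls and 0.20 (Atp5j) in cKO mice, with an FDR of 0.0954 for the latter in the authors' deposited table. The gamma subunit Atp5c1 in the central stalk and Atp5pb in the peripheral stalk fell in controls. Atp5j2, the f subunit of the membrane part, fell in cKO mice by 0.30 ± 0.074 SE (FDR = 0.0242), from 75.2 to 61.2 CPM, and had -0.19 ± 0.072 SE (FDR = 0.113) in controls in the authors' deposited tables.

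**Figure D1:**
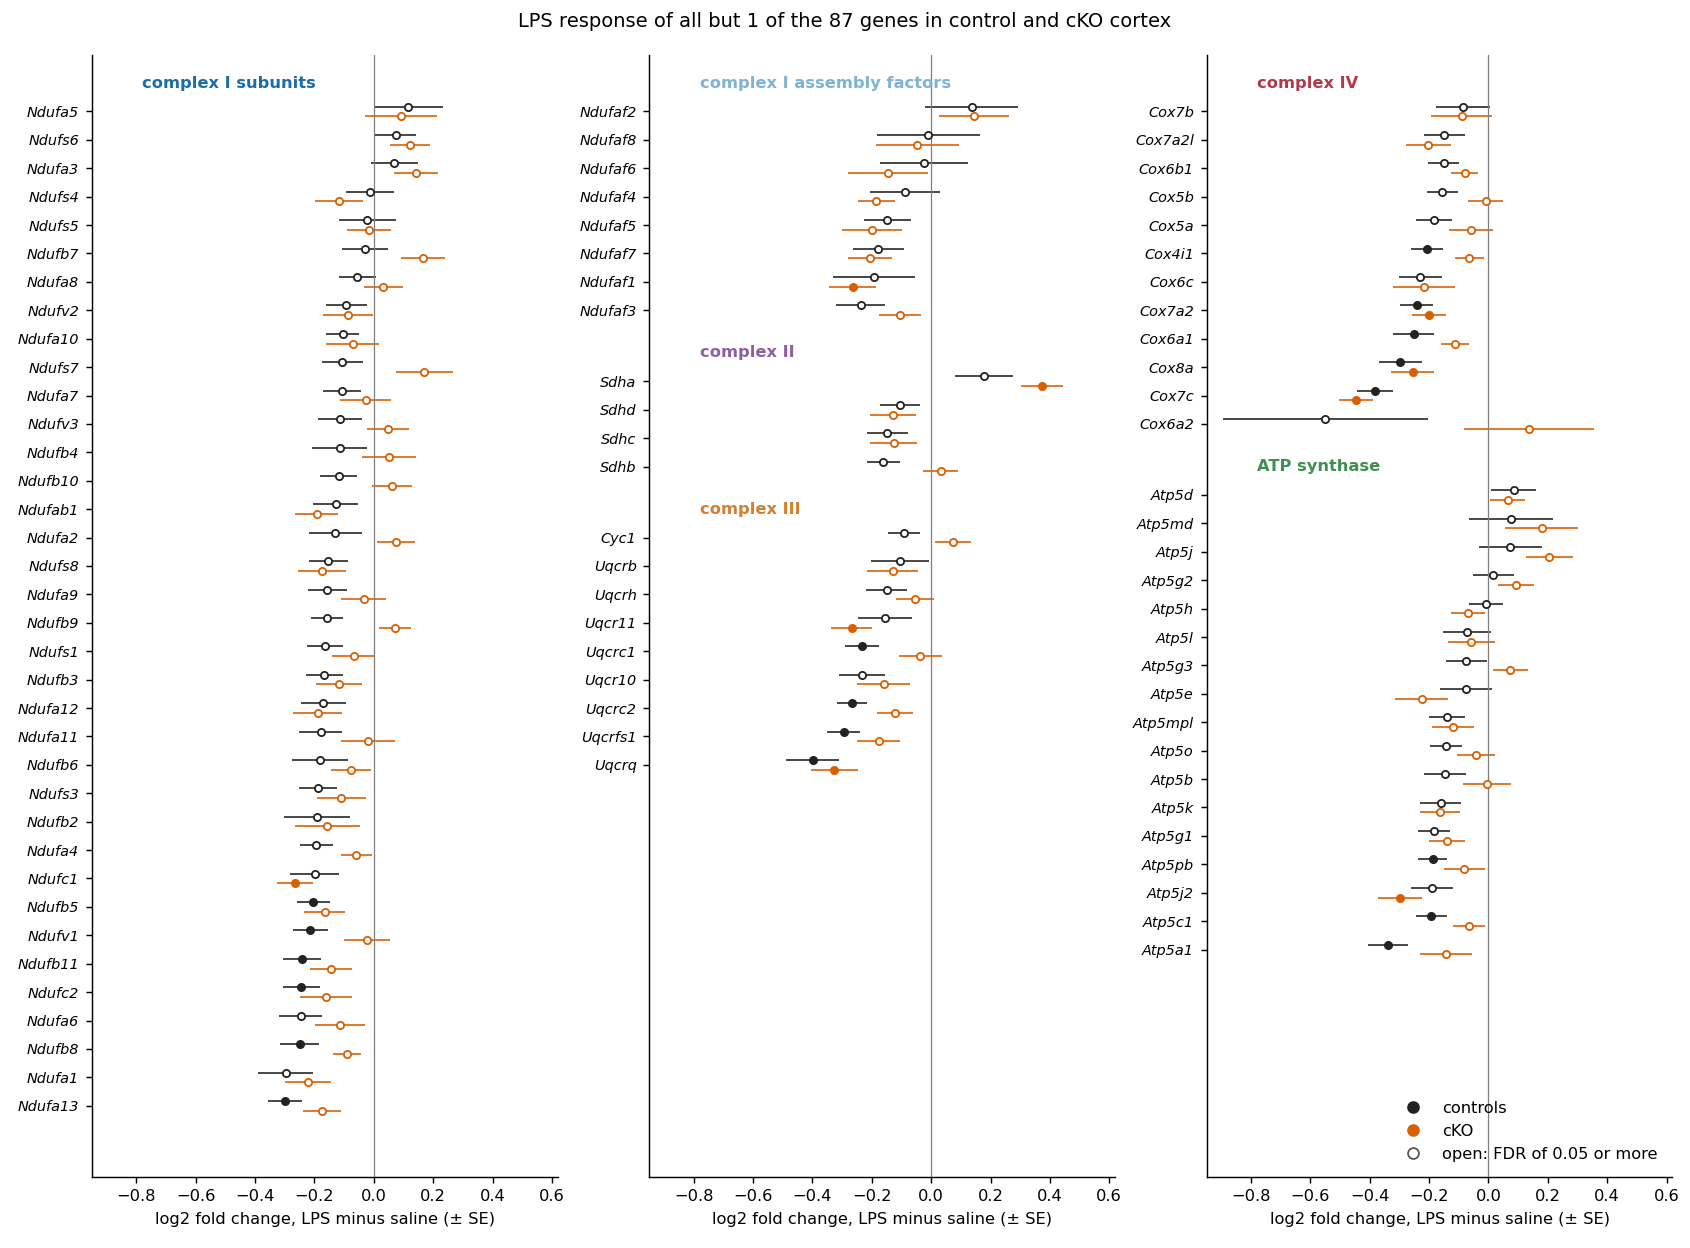
Log2 fold change (LPS minus saline, x axis) of all but 1 of the 87 genes in controls (black) and cKO mice (orange), with bars of 1 standard error derived from the authors' deposited tables, and filled points at an FDR below 0.05. The 18 filled black points all lie below 0, as do 8 of the 9 filled orange points, and Sdha is the filled point above 0.

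In cKO mice the members' median lay closer to 0 and fewer of them fell. Of the 87 members, 66 were below 0, against 50.2% of all genes, and the median was -0.082, against -0.0013 for all genes in the authors' deposited table. At an FDR below 0.05, 8 fell (9.20%) and 1 rose, while 8.52% of all genes fell and 10.9% rose in the authors' deposited table. The share of members that fell in cKO mice was thus near the background. The summed level of the 87 genes was 95.7% of the saline level. By complex, the summed LPS level in percent of saline was 96.3 for complex I subunits, 93.2 for complex III, 90.2 for complex IV and 96.1 for the ATP synthase, against 90.0, 86.3, 85.9 and 88.7 in controls. With the trend of fold change on GC content and transcript length over all genes removed, 18 members fell in cKO mice, the median there was -0.15, and 79 of 87 were below 0. Under that setting 10.4% of all genes fell in cKO mice and 57.0% were below 0, so the 20.7% of members that fell was then above the share of all genes. In controls 32 members then fell, against 6.08% of all genes. Among markers, 4 of 10 astrocyte genes (Aqp4, S100b, Slc1a2 and Slc1a3) fell with LPS in cKO mice and none rose at the threshold. Of the 10, however, 6 were above 0, with a median log2 fold change of 0.053 and the highest value at 1.06 (Gfap). The summed astrocyte level was 4734 CPM after saline and 4220.3 CPM after LPS in the authors' deposited table. Of the neuronal markers, 3 of 8 inhibitory and 2 of 10 excitatory genes rose. The 10 excitatory genes were split, with 5 above and 5 below 0 and a median log2 fold change of -0.012. Further, 4 of 8 endothelial and 1 of 9 pericyte and smooth muscle genes rose. Among microglial genes 4 rose and 2 fell with LPS in cKO mice (summed level 289 to 334 CPM). Of 9 striatal neuron markers 2 rose (513 to 606 CPM) in the authors' deposited table. Their part in the members' values was not tested.

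**Figure D2:**
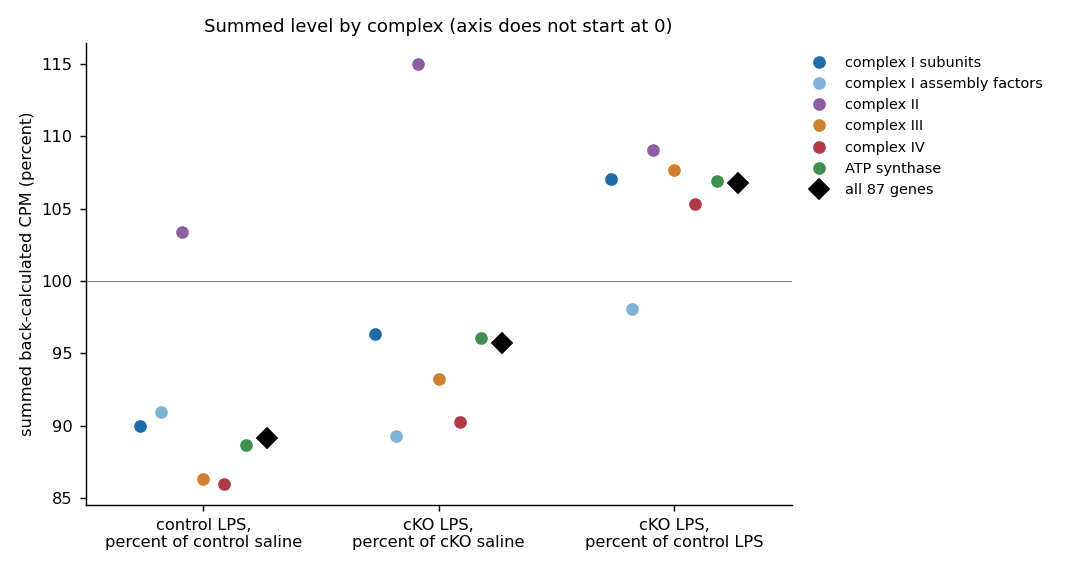
Summed back-calculated CPM of each complex (coloured circles) and of all 87 genes (black diamonds), as percent of the reference group of the same deposited table; the axis does not start at 0 and no error can be given. All 87 genes together sit at 89.2% after LPS in controls, 95.7% after LPS in cKO mice and 107% in cKO relative to control mice after LPS, and complex II lies above 100% in each.

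The LPS comparisons of the 2 genotypes share no library, so their values can be set against each other. Across the 87 genes, Pearson's r between the log2 fold changes was 0.602 and Spearman's rho 0.554, and r was 0.725 without the imprecise Cox6a2. Genes are not independent replicates, since those of a library share its depth and composition. In all, 66 genes were below 0 in both genotypes, 12 below 0 in controls and above 0 in cKO mice, and none the other way. The 9 above 0 in both were Sdha, the ATP synthase genes Atp5d, Atp5g2, Atp5j and Atp5md, the complex I genes Ndufa3, Ndufa5 and Ndufs6, and the assembly factor Ndufaf2. Cox7a2, Cox7c, Cox8a and Uqcrq fell in both genotypes, which is 22.2% of the 18 that fell in controls and 50% of the 8 that fell in cKO mice. The overlap of falls over all genes was not counted, so these shares cannot be set against a background. The other 14 that fell in controls were all below 0 in cKO mice, and the other 4 that fell in cKO mice were all below 0 in controls.

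**Figure D3:**
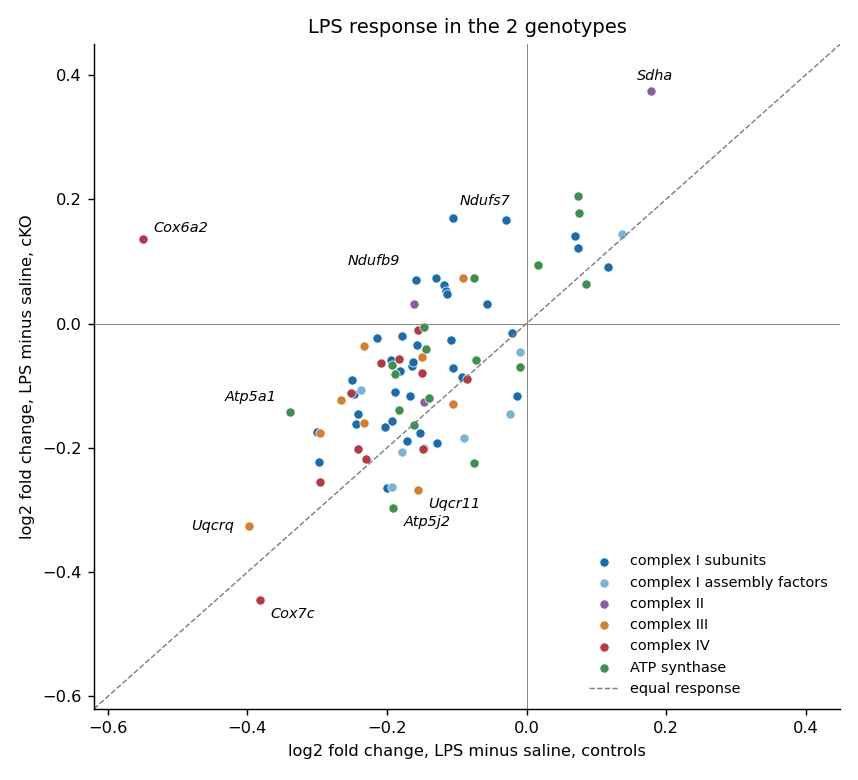
Log2 fold change with LPS in controls (x axis) against cKO mice (y axis) for the 87 genes, coloured by complex, from the authors' deposited tables; the dashed line marks equal responses. More points (64 of 87) lie above the line than below it. Sdha lies above the line at the upper end of the cloud, and Cox7c and Uqcrq lie near the line towards its lower end.

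The difference of the LPS responses was tested gene by gene as cKO minus control. It was above 0 for 64 of 87 members, against 49.9% of all genes, with a median of 0.078. With the GC and length trend removed, it was above 0 for 55 of 87, against 52.0% of all genes, and the median was 0.032. No member was called, as for all but 0.00725% of all genes, and 3 had an unadjusted p below 0.05, all of them higher, against 6.52% of all genes in either direction. The smallest adjusted p of a member was that of Ndufb9, a complex I accessory subunit, whose difference was 0.23 ± 0.087 SE (adjusted p = 0.562), with a 95% interval of 0.058 to 0.40. The difference for Sdhb was 0.19 ± 0.089 SE (adjusted p = 0.712) and that for Ndufs7, an iron-sulfur subunit next to the ubiquinone site, was 0.28 ± 0.13 SE (adjusted p = 0.725). For Cox7c the difference was -0.063 ± 0.14 SE (adjusted p = 0.963), with a 95% interval of -0.34 to 0.22, which does not show that the genotypes respond alike. With standard errors taken from F the smallest adjusted p was 0.404, again for Ndufb9, and no member was called.

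After LPS, most members lay slightly above 0 in cKO relative to control cortex, and none was called. In the authors' deposited table, 63 of 87 were above 0, against 50.5% of all genes, with a median log2 fold change of 0.068. No member passed an FDR of 0.05, as for all but 0.00725% of genes. At an unadjusted p below 0.05, 16 members were higher and none lower, against 5.98% of all genes higher and 6.33% lower in the authors' deposited table. This comparison uses the same LPS libraries as the LPS comparisons, so it is not separate evidence of a difference between their LPS responses. With the GC and length trend removed, 51 of 87 were above 0, against 53.0% of all genes, and the median was 0.018, against 0.010 over all genes.

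Ndufb9 had the smallest FDR of the members in the genotype comparison. It was at 89.4 CPM in control and 108 CPM in cKO mice given LPS, with a log2 fold change of 0.27 ± 0.056 SE (FDR = 0.198) in the authors' deposited table. Its exons overlap those of the predicted gene Gm49356 on the same strand in the annotation used here, so its count is uncertain. Ndufa2, a small accessory subunit, was at 29.8 and 36.2 CPM in the same order, with 0.28 ± 0.086 SE (FDR = 0.298) in the authors' deposited table. Ndufa4 had 0.17 ± 0.056 SE (FDR = 0.323), Sdhb 0.18 ± 0.061 SE (FDR = 0.329) and Uqcrc2 0.15 ± 0.052 SE (FDR = 0.327) in the authors' deposited table. Each of these was higher in cKO than in control mice without passing the threshold. The assembly factors lay on the other side, with 6 of 8 below 0 and a median of -0.071 in the authors' deposited table.

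Several lists of cell type markers also lay to one side of 0 between the genotypes after LPS. All 9 striatal neuron markers were above 0 with a median log2 fold change of 0.63, and their summed level was 400.3 CPM in control and 599 CPM in cKO mice in the authors' deposited table. Of the 10 excitatory neuron markers, 9 were below 0, and of the 9 microglia markers, 8, with summed microglial levels of 419.8 and 331 CPM. Of 8 inhibitory neuron markers, 7 were above 0 (median 0.16), as were the 3 measured choroid plexus markers, while 7 of 8 endothelial and 7 of 9 pericyte and smooth muscle markers were below 0 in the authors' deposited table. The 10 astrocyte markers were split, 5 on each side, with a median of 0.17. At an unadjusted p below 0.05 in the authors' deposited edgeR result, 4 of them were higher and 1 lower. Over all genes, 5.98% were higher and 6.33% lower at that p. Of 9 oligodendrocyte markers 5 were above 0. None of these markers passed the threshold in the authors' deposited table, and their part in the higher levels of the respiratory chain genes was not tested.

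After saline no deposited table compares the genotypes. The difference that follows from the 3 deposited fold changes, a point estimate with no test in which genotype and sex are mixed, was above 0 for 43 members and below 0 for 44, with a median of -0.0011. The values ran from -0.17 for Cox6a2 to 0.087 for Cox6c. By the same untested estimate, all 9 striatal neuron markers were above 0 (median 0.26), as were 9 of 10 astrocyte markers (median 0.21). The 3 measured choroid plexus markers were above 0 as well, while 7 of 9 oligodendrocyte and 7 of 9 pericyte and smooth muscle markers were below 0. The other marker lists lay on both sides of 0.

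**Figure D4:**
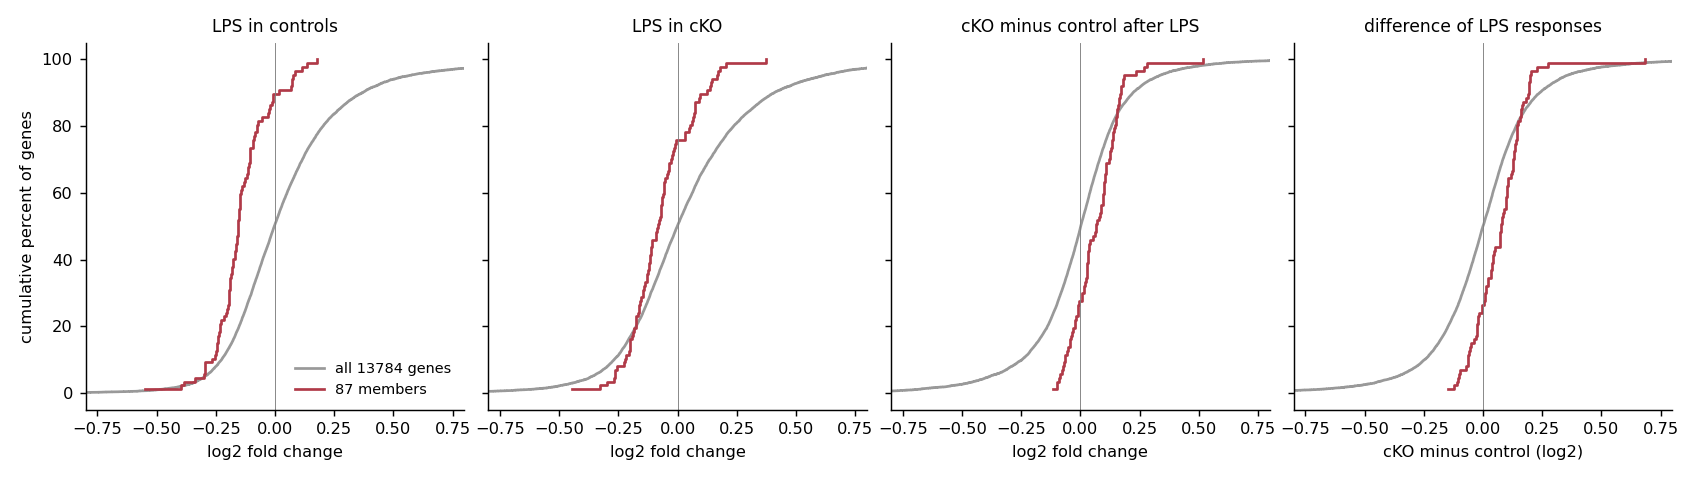
Cumulative percent of genes (y axis) by log2 fold change (x axis) for the 87 members (red) and all 13784 genes (grey) in the LPS comparisons, the genotype comparison after LPS and the difference of the LPS responses. The red curve lies left of the grey one in the LPS comparisons over most of its range, with medians of -0.16 and -0.082, and right of it around 0 in the other panels, with medians of 0.068 and 0.078.

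**Figure D5:**
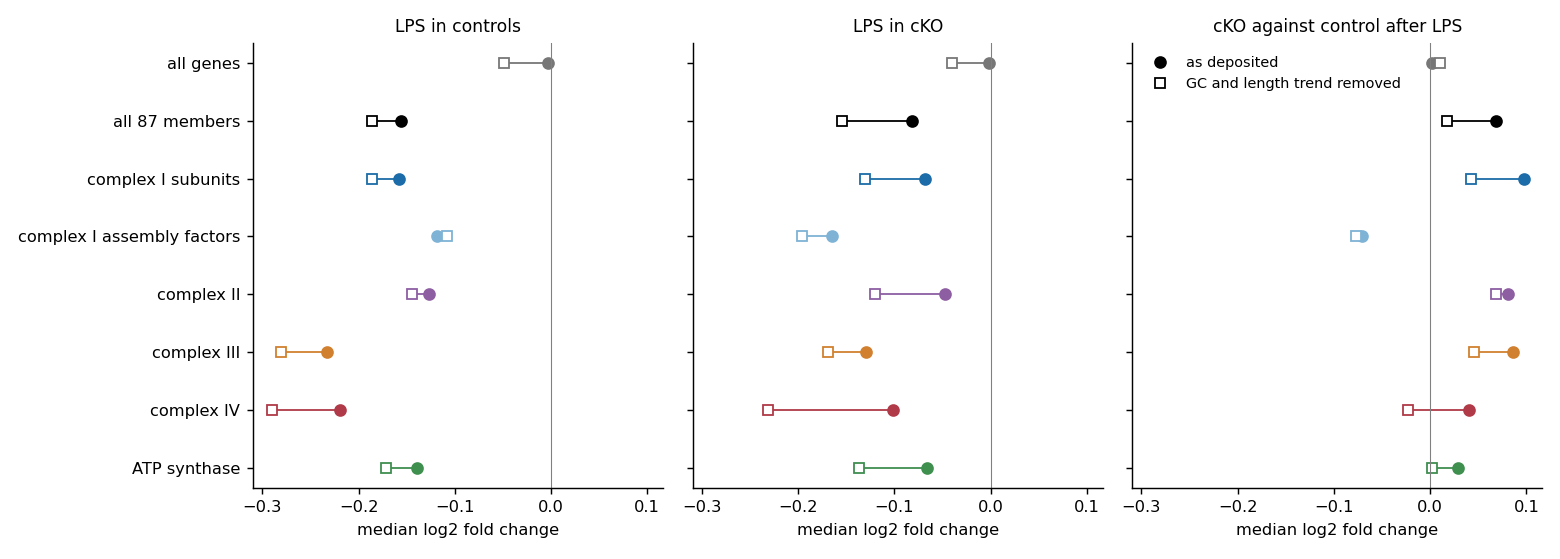
Median log2 fold change (x axis) of all genes, of the 87 members and of each complex as deposited (circles) and with the trend on GC content and transcript length removed (squares). The members' median moves from -0.16 to -0.19 with LPS in controls, from -0.082 to -0.15 with LPS in cKO mice and from 0.068 to 0.018 between the genotypes after LPS.

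The partners of these subunits on the mitochondrial genome lay on both sides of 0 with LPS. Of the 13 subunits encoded in mitochondrial DNA, 7 were above 0 with LPS in controls (median 0.20) and 8 in cKO mice (median 0.27) in the authors' deposited tables. With the GC and length trend removed, 6 were above 0 in controls, with a median of -0.0026, and 10 in cKO mice, with a median of 0.29. Between the genotypes after LPS, 12 of 13 were above 0 in the authors' deposited table, with a median of 0.10, and none was called. With LPS only mt-Atp6, a proton channel subunit of the ATP synthase, changed, rising in cKO mice by 0.48 ± 0.13 SE (FDR = 0.0335) in the authors' deposited table. The core complex IV subunits mt-Co1 and mt-Co3 had -0.22 ± 0.10 SE (FDR = 0.158) and -0.47 ± 0.20 SE (FDR = 0.154) in controls in the authors' deposited table. The values per gene had a median standard error of 0.20 in controls, against 0.069 for the nuclear members, so they are less precise. Their summed level was 19470.2 CPM after saline and 17979 CPM after LPS in controls, and 19789.9 and 19285 CPM in cKO mice.

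Cytochrome c and the carriers that serve the chain were mostly lower, as the members were. Of 11 such genes, 10 were below 0 in each genotype in the authors' deposited tables. In controls 3 fell (27.3%, against 3.31% of all genes). The ADP/ATP carrier Slc25a4 fell by 0.27 ± 0.052 SE (FDR = 0.0165) in the authors' deposited table. The aspartate-glutamate carrier Slc25a12 fell by 0.41 ± 0.11 SE (FDR = 0.0449) and the outer membrane channel Vdac1 by 0.21 ± 0.058 SE (FDR = 0.0499) in the authors' deposited table. Cycs, cytochrome c itself, fell in cKO mice by 0.24 ± 0.064 SE (FDR = 0.0324) and had -0.19 ± 0.084 SE (FDR = 0.166) in controls in the authors' deposited tables. It was the only 1 of the 11 that fell in cKO mice (9.09%, against 8.52% of all genes), a share near the background. Of 43 measured assembly factors that lie outside the symbol rule, 1 fell in controls (2.33%, against 3.31% of all genes) and none rose. In cKO mice 3 fell (6.98%, against 8.52% of all genes) and 1 rose (2.33%, against 10.9%). These shares lay below those of all genes in both genotypes. Tmem70, which assembles the ATP synthase, fell in both, by 0.41 ± 0.084 SE (FDR = 0.0198) and 0.45 ± 0.090 SE (FDR = 0.0126) in the authors' deposited tables. Surf1, which builds complex IV, rose in cKO mice by 0.23 ± 0.069 SE (FDR = 0.0474), where the heme a synthase Cox15 and the complex II factor Sdhaf2 fell by 0.25 ± 0.076 SE (FDR = 0.0474) and 0.26 ± 0.064 SE (FDR = 0.0241) in the authors' deposited table.

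Of 17 genes of the tricarboxylic acid cycle and pyruvate dehydrogenase, 2 fell in controls (11.8%, against 3.31% of all genes). In cKO mice 2 rose (11.8%, against 10.9% of all genes), a share near the background. In each genotype 11 of the 17 were below 0 in the authors' deposited tables. Pdha1 and Dlat, subunits of pyruvate dehydrogenase, fell in controls by 0.26 ± 0.061 SE (FDR = 0.0335) and 0.26 ± 0.054 SE (FDR = 0.0198) in the authors' deposited table. Malate dehydrogenase Mdh2 and the oxoglutarate dehydrogenase subunit Ogdh rose in cKO mice by 0.47 ± 0.073 SE (FDR = 0.00653) and 0.21 ± 0.057 SE (FDR = 0.0305) in the authors' deposited table, as did Sdha, which acts between them in the cycle. Between the genotypes after LPS, 15 of the 17 were above 0 in the authors' deposited table, with a median of 0.070, and none was called.

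Among 15 measured regulators of mitochondrial biogenesis, 2 rose in controls (13.3%, against 6.46% of all genes) and none fell. In cKO mice 2 fell (13.3%, against 8.52% of all genes) and none rose. The coactivators Ppargc1b and Pprc1 rose in controls, by 0.45 ± 0.11 SE (FDR = 0.0364) and 0.49 ± 0.13 SE (FDR = 0.0433) in the authors' deposited table. The GABP subunit Gabpb1 and the factor Yy1 fell in cKO mice, by 0.30 ± 0.079 SE (FDR = 0.0291) and 0.25 ± 0.059 SE (FDR = 0.0213) in the authors' deposited table. Ppargc1a, the best known coactivator of respiratory genes, had 0.00089 ± 0.076 SE (FDR = 0.995) in controls and -0.020 ± 0.13 SE (FDR = 0.926) in cKO mice in the authors' deposited tables. Nrf1, Gabpa, Esrra and the mitochondrial transcription factor Tfam had log2 fold changes of -0.073, -0.051, -0.17 and -0.20 in controls and -0.12, -0.16, -0.23 and -0.085 in cKO mice, and none passed the threshold in the authors' deposited tables.

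The LPS responses were also set against the properties of the genes within the set. In controls, Pearson's r of the log2 fold change was -0.0171 with GC content, -0.0540 with log2 transcript length and -0.106 with the mean level, over 87 genes that share their libraries. In cKO mice r with GC content was 0.266, and for the genotype comparison after LPS it was 0.305. In the annotation used here, exons of 29 members overlap those of another gene on the opposite strand and exons of 5 overlap another gene on the same strand, 32 members in all. Atp5a1, Cox4i1, Ndufa13, Ndufa2, Ndufs1, Uqcrc2, Cox5a and Cox6a2 are among those with an opposite-strand overlap, and their counts are less certain, since the sources used here do not say whether counting used the strand.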

How the data were processed

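The kit was stranded and removed ribosomal RNA, per the labels' protocols. Groups come from the genotype label, since every title carries the word for saline. The submitters' processing notes name edgeR 3.30.3, RSEM, STAR and cutadapt 3.5 with genome build GRCm39, without role or order. For each gene and comparison the authors deposited, per the file headers, an F statistic (a score), a p-value with its FDR, a log2 fold change and the mean log2 CPM. The tables name no direction. Levels back-calculated from fold change, mean log2 CPM and group size, compared where a group stands in 2 tables, differed by an SD of 0.0537 (control LPS) and 0.0503 (cKO LPS) over genes when read as cKO minus control and LPS minus saline, and by 0.226 or more with any sign turned. The largest gap between the tables for a member was 0.144, so each level is set only against levels of its own table, and levels of different genotypes set side by side for the saline groups come from tables normalised separately.

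Calls are the authors' deposited FDR values below 0.05 over all genes, and edgeR is the testing tool the authors' notes name. Each standard error is the size of the log2 fold change over the root of F. The difference of LPS responses and its 95% interval used standard errors from the normal quantile of each deposited p-value, with a two-sided normal p and Benjamini-Hochberg adjustment over all genes, which is cautious for strong responses. The script was tested on simulated data. The labels do not say whether RNA was pooled, so p-values measure the spread between these samples. Alternatives were FDR thresholds of 0.1 and 0.01, a minimum mean log2 CPM of 1, centring on the median of all genes, removal of a spline trend (4 knots each) on GC content and log length, leaving out the assembly factors, and standard errors from F. Lengths and GC content came from GENCODE M21 by gene ID for 13730 genes, including all 87 members. Promoters came from RefSeq (GRCm38.p6). Named genes are the 8 largest falls and rises among called members in each LPS comparison, the 5 members with the smallest p in the genotype comparison and in the difference, a fixed set of core subunits and isoforms, and up to 4 genes of each other list by p; 1 gene of that set is not reported here. The members and lists were chosen with earlier results of these data known. Analyses used Python 3.11.15, numpy 2.4.6, pandas 2.3.3, scipy 1.17.1 and matplotlib 3.10.9.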

Additional observations from a re-analysis of the deposited data

How the results depend on the processing

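No paired analysis was possible because the deposited tables hold no values per library, and leaving out a replicate was not run for the same reason. In controls, 18 members fell at an FDR below 0.05, 32 below 0.1, 1 below 0.01 (Cox7c) and 32 once the trend on GC content and length was taken out, where 6.08% of all genes fell. In cKO mice, 8 members fell at an FDR below 0.05, 14 below 0.1, 1 below 0.01 (Cox7c) and 18 with the trend removed, where 10.4% of all genes fell. There, 2 members rose below 0.1 and 0 below 0.01, against 1 (Sdha) in the main result. The shares of all genes at thresholds of 0.1 and 0.01 are not given here, so the counts there cannot be set against a background. With the trend removed, 16 of the 18 falls in controls remained (without Atp5c1 and Ndufb5) and 7 of the 8 in cKO mice (without Ndufaf1). Why the trend changes the number of calls was not tested. Removing it moved the median of all genes by less than 0.1 in every comparison. The minimum level, centring and leaving out the assembly factors changed no count by over 1.5 times, and no called member changed direction under the alternatives run. Some values without a call did: with the trend removed, the complex IV median between the genotypes after LPS went from 0.040 (9 of 12 above 0) to -0.023 (5 of 12), and the median of the mtDNA-encoded subunits with LPS in controls from 0.20 to -0.0026. In the genotype comparison and the difference of responses, no member was called under any alternative. The deposited values give no depth, and Cox6a2, the member with the lowest mean log2 CPM, has the widest error in controls.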
